A study of Rattus norvegicus with 24 samples.

Results

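Fatty acid oxidation is described here through 41 probes of the array, which measure 40 genes of the 9799 with a tested probe of a single symbol. The members are the 41 symbols of a list of enzymes, carriers and regulators of this pathway, matched to the probe annotation, and a probe was kept where it was above background on 3 or more arrays. Of the 41 symbols 40 had a probe, Crat had 2, and no probe was paired with Ehhadh, the peroxisomal bifunctional enzyme. All 41 annotated probes passed the filter, and they are a small share of the 14390 probes tested of 22523 on the array. Membership did not depend on any difference between groups. Fatty acid oxidation genes were a list in an earlier analysis of these data, so the choice is not independent of its results.

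The arrays carried RNA from the kidneys of Wistar rats aged 3 months. Animals had either a sham operation or 20 min of ischemia of both kidneys followed by 6, 24 or 120 h of reperfusion, and cortex and medulla were measured on separate arrays. That gives 8 groups of 3 arrays, 24 in all: sham cortex, 6 h cortex, 24 h cortex, 120 h cortex and the same 4 conditions of medulla. The title of the series concerns fibrinogen in kidney damage. The labels number the replicates but do not say that each is a separate animal, or how a region was dissected. A p-value here rests on how far arrays scatter within their groups, pooled over all 8 groups. That scatter could therefore be partly technical. In RNA from whole tissue, fewer cells of a type and less RNA per cell cannot be told apart.

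A fatty acid is first bound in the cytosol and activated to its coenzyme A ester, and a carnitine shuttle then carries it into the mitochondrion. There an acyl-CoA dehydrogenase, a hydratase, a second dehydrogenase and a thiolase shorten the chain in repeated rounds, with the electrons of the dehydrogenases passing through the electron transfer flavoprotein to the respiratory chain. Peroxisomes run a parallel pathway for very long and branched chains, in which acyl-CoA oxidases hand the electrons to oxygen and produce hydrogen peroxide. The proximal tubule, which fills most of the cortex and the outer stripe of the outer medulla, is known to draw most of its energy from this pathway, and many of its genes are known targets of the nuclear receptor PPAR alpha.

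Levels are normalized intensities on the log2 scale and differences are log2 differences. A probe is said to have risen or fallen where limma's adjusted p (Benjamini-Hochberg over all 14390 probes) was under 0.05. The median deposited intensity ran from 67.3 to 98.1 over the 24 arrays, and 49.6% to 56.4% of probes were above background. The injury genes Lcn2, Spp1 and Clu had risen in all 6 comparisons with sham and Timp1 in 5 of 6. In all 2 libraries stood apart. The array sham medulla replicate 1 correlated better with sham cortex (mean r = 0.979) than with the other arrays of its own group (0.968), and 6 h cortex replicate 3 did so by a smaller margin (0.967 against 0.966). The counts that change and the calls that are lost without them are given as well.

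Far more members fell than rose. More passed in the medulla than in the cortex, although a direct test of medulla against cortex responses called 0 of 41 at each time. After 6 h of reperfusion 22 of 41 probes had fallen in the medulla, where 16.6% of all probes tested did, and 1 had risen, where 17.3% did. After 24 h 20 had fallen in the medulla against a background of 15.5%, and 1 had risen against 17.2%. After 120 h 11 had fallen against 6.88%, and none had risen against 7.69% of all probes. In the cortex 5 of 41 had fallen at 6 h, a share near the 10.8% of all probes, and 1 had risen where 8.87% of all did. At 24 h in the cortex 10 had fallen against 13.6% of all probes, and 1 had risen against 12.6%. At 120 h in the cortex 2 had fallen and none had risen, with backgrounds of 3.20% and 2.45%.

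The median difference of the 41 probes was -0.30, -0.45 and -0.23 in the cortex at 6, 24 and 120 h, and -0.74, -0.61 and -0.46 in the medulla. Over all probes tested the same medians lay between 0.00 and 0.04. In all, 23 probes fell in at least 1 of the 6 comparisons, 3 rose in at least 1, and 15 did neither. Acadsb was the 1 probe that fell in all 6. Of the 10 probes that fell in the cortex at 24 h, 9 were among the 20 that fell in the medulla at 24 h. Of the 22 that fell in the medulla at 6 h, 19 fell there at 24 h too, and all 11 that fell at 120 h had fallen at both earlier times; these time points share their sham arrays.

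**Figure D1:**
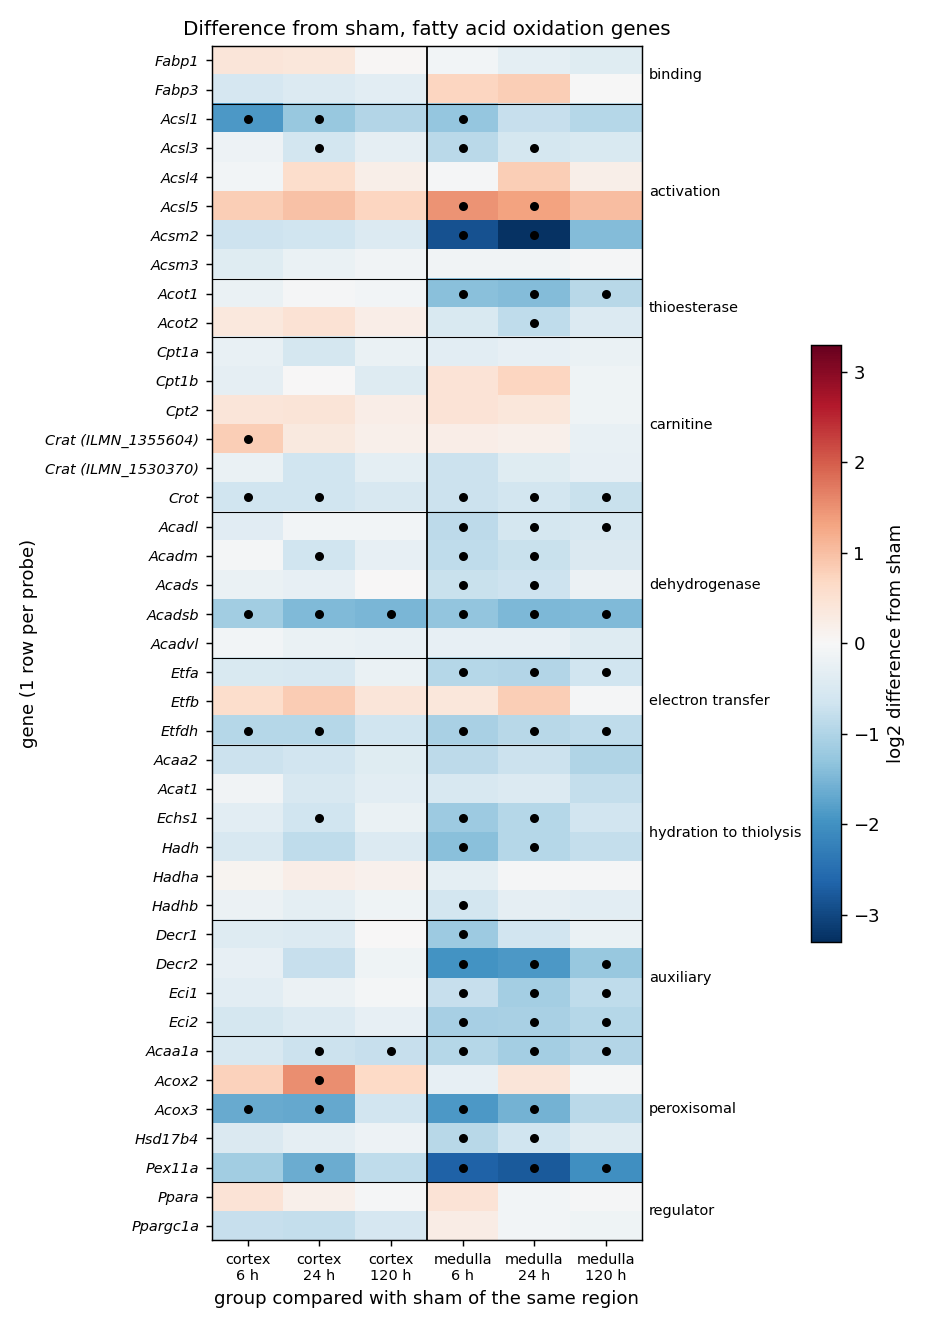
Log2 difference from the sham arrays of the same region for each of the 41 probes (rows, by role) in the 6 comparisons (columns, 3 arrays against 3), with blue for lower and red for higher. A dot marks an adjusted p under 0.05: the dots are denser in the medulla columns, and Acadsb has a dot in every column.

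Leaving out the libraries that stood apart changed these counts unevenly. Without sham medulla replicate 1, 20 members had fallen and 1 had risen in the medulla at 6 h, 15 had fallen and none had risen at 24 h, and 5 had fallen at 120 h, those 5 being Acaa1a, Acadl, Acadsb, Etfdh and Pex11a. The calls that ended were those of Eci1 (-0.60) and Crot (-0.68) at 6 h, of Acsl5 (0.77), Acsl3 (-0.54), Acot2 (-0.87), Hadh (-0.77), Acads (-0.55), Hsd17b4 (-0.57) and Crot (-0.58) at 24 h, and of Eci1 (-0.67), Eci2 (-0.91), Decr2 (-0.96), Etfa (-0.70), Crot (-0.72) and Acot1 (-0.86) at 120 h. The 15 falls at 24 h include a call gained without this array. The share of all probes called in either direction fell with the counts, to 25.1%, 22.0% and 6.59% from 33.8%, 32.7% and 14.6%. Without 6 h cortex replicate 3, 10 members had fallen and 2 had risen in the cortex at 6 h, with Acadl, Acsm3, Fabp1, Hsd17b4, Pex11a and the dimmer Crat probe added, while the share of all probes called rose from 19.6% to 27.4%. In the cortex at 24 h the count of 11 fell to 6 without sham cortex replicate 1 and to 7 without 24 h cortex replicate 2 or replicate 3. In the medulla at 120 h the count of 11 fell to 3 without 120 h medulla replicate 2 and to 5 without replicate 3. With all arrays the shares of all probes called were 26.2% and 14.6% in these comparisons. The shares without these arrays are not given here, so the smaller counts cannot be set against them.

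Upstream sequence was compared with these calls, because PPAR alpha with its partner RXR is known to bind a direct repeat of AGGTCA with a single base between the copies. The 250 bases before the annotated start of each gene were taken from RefSeq (build GRCr8) for the 37 of 41 listed genes that have an entry, and searched on both strands for that 12-letter repeat with any base between the copies, allowing mismatches among its fixed letters. No member matched in full, as did 17 of 33469 windows of all genes. With at most 1 mismatch 2 members matched, Acadvl and Fabp1 (5.41% of 37, against 0.368% of all windows), and with at most 2 mismatches 5 matched, with Crat, Echs1 and Etfa added (13.5% against 3.15%). The 2 closest matches belong to genes whose probes passed in none of the 6 comparisons. The Fabp1 probe was dim, above background on 2 of 3 arrays in each reperfused medulla group. Of the genes within 2 mismatches, the brighter Crat probe rose in the cortex at 6 h, and Echs1 and Etfa fell in the medulla. Echs1 also fell in the cortex at 24 h (-0.67), and the dimmer Crat probe passed in none of the 6 comparisons. Pex11a, with the largest fall of the peroxisomal members in the medulla, had no match within 2 mismatches in this window. Nor had Acadsb, which fell in all 6 comparisons. Whether matches and calls go together was not tested. The windows of Acadvl, Fabp1, Echs1, Etfa, Pex11a and Acadsb are shown 5′ to 3′ in the direction of the gene, with the match in capitals. They lie at chr10:55236706-55236955 (minus strand), chr4:104749090-104749339 (plus strand), chr1:204333507-204333756 (minus strand), chr8:64787966-64788215 (minus strand), chr1:143096492-143096741 (minus strand) and chr1:195618966-195619215 (plus strand).
Acadvl: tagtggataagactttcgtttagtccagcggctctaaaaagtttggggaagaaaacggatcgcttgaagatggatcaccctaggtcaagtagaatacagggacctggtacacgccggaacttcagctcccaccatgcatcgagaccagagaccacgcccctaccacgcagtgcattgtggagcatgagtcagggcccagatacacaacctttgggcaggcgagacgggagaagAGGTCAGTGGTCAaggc
Fabp1: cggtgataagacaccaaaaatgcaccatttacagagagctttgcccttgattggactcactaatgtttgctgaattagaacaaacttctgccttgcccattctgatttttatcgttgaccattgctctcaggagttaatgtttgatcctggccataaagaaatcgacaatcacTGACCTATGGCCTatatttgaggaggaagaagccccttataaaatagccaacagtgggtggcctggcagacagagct
Echs1: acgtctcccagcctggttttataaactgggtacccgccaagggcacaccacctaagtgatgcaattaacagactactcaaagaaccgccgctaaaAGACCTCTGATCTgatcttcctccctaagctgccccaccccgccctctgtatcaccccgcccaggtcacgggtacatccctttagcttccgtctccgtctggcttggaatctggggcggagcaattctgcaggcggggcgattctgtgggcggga
Etfa: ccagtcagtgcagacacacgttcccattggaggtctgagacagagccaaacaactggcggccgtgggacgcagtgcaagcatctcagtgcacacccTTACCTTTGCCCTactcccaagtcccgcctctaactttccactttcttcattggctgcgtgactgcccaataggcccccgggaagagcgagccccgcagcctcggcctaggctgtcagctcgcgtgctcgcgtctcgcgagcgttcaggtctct
Pex11a: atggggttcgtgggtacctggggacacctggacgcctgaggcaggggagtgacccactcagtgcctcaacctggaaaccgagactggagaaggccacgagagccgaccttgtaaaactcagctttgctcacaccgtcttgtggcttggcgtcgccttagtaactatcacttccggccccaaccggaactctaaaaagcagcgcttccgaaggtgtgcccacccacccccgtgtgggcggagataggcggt
Acadsb: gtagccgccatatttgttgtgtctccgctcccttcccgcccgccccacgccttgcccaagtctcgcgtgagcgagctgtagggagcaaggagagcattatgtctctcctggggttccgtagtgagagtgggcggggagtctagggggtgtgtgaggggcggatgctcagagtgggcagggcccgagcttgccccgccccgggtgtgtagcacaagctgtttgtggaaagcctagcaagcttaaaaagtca
The match of Acadvl, AGGTCAGTGGTCA, lies 17 to 5 bases before the start, and that of Fabp1, on the opposite strand, lies 77 to 65 bases before it. A match of letters is a description of the window and not of binding.

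Among the genes for binding and activation of fatty acids, neither binding protein passed: Fabp3, the heart-type carrier, differed by -0.56, -0.45 and -0.36 in the cortex and by 0.70, 0.81 and -0.01 in the medulla at 6, 24 and 120 h, and Fabp1, the liver-type carrier, was a dim probe whose array values ran from 4.59 to 6.00. Of the 6 activating enzymes, 4 passed somewhere: Acsl1, Acsl3 and Acsm2 fell and Acsl5 rose.

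Acsl1 (probe ILMN_1363750), a long-chain acyl-CoA synthetase, fell early in the cortex. Its log2 levels were 13.06, 12.35 and 12.58 on the sham cortex arrays and 11.11, 10.35 and 10.84 at 6 h. They were 11.79, 11.33 and 11.15 at 24 h and 11.99, 11.50 and 11.62 at 120 h. All 9 reperfused cortex arrays lay below all 3 sham arrays, with the lowest values at 6 h. The difference was -1.90 ± 0.41 (SE) at 6 h, 3.72-fold lower (adjusted p = 0.00339), -1.24 at 24 h (adjusted p = 0.0306) and -0.96 at 120 h, which did not pass (adjusted p = 0.187). The call at 24 h was lost without sham cortex replicate 1 (-1.04) or replicate 3 (-1.28), or 24 h cortex replicate 2 (-1.19) or replicate 3 (-1.10). In the medulla the sham arrays disagreed, at 11.88, 13.16 and 13.17, and the arrays at 6 h, at 12.19, 11.46 and 10.71, overlapped them. The fall there was -1.28 at 6 h (adjusted p = 0.0209) and -1.71 without sham medulla replicate 1, the low sham array (adjusted p = 0.00613), while it did not pass without sham medulla replicate 2 (-1.07) or replicate 3 (-1.06) or 6 h medulla replicate 3 (-0.91).

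Acsm2 (probe ILMN_1354490), a medium-chain synthetase of mitochondria, had the largest falls of all members in the medulla at 6 and 24 h. Its levels were 13.08, 12.12 and 12.70 on the sham medulla arrays and 10.08, 10.47 and 8.71 at 6 h. They were 10.91, 9.30 and 7.94 at 24 h and 11.95, 11.20 and 10.46 at 120 h. The reperfused medulla arrays were all below the sham arrays and were widely spread among themselves. The difference was -2.88 ± 0.54 at 6 h, 7.37-fold lower (adjusted p = 0.000597), and -3.25 ± 0.54 at 24 h, 9.54-fold lower (adjusted p = 0.000244); the 24 h value was -2.53 without 24 h medulla replicate 3 and -4.02 without replicate 1. At 120 h the difference of -1.43 did not pass (adjusted p = 0.0814). In the cortex Acsm2 was bright on every array, from 13.31 to 13.70 in sham and from 12.63 to 13.31 after reperfusion, with differences of -0.68, -0.66 and -0.44 that did not pass.

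Acsl5 (probe ILMN_1363573), a synthetase of mitochondria and the endoplasmic reticulum, went the other way. Its levels were 8.20, 9.87 and 9.83 on the sham medulla arrays, 10.93, 10.21 and 11.23 at 6 h and 10.47, 10.79 and 10.61 at 24 h. All 6 of these reperfused arrays lay above all sham arrays, and sham medulla replicate 1 was far below the other sham arrays. The rise was 1.49 ± 0.36 at 6 h, 2.81-fold (adjusted p = 0.00343), and 1.32 ± 0.36 at 24 h (adjusted p = 0.00818). Without sham medulla replicate 1 the rise was 0.94 at 6 h (adjusted p = 0.0238) and 0.77 at 24 h, which no longer passed (adjusted p = 0.0629). In the cortex all 6 arrays at 6 and 24 h, between 8.93 and 9.50, were above the sham arrays, between 8.07 and 8.73, but the differences of 0.82 and 0.96 did not pass (adjusted p = 0.114 and 0.0518).

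Acsl3, a long-chain synthetase known from lipid droplets, fell by less, by 0.60 in the cortex at 24 h and by 0.88 and 0.57 in the medulla at 6 and 24 h. Its 24 h call in the medulla was lost without sham medulla replicate 1 (-0.54) or replicate 3 (-0.56), or 24 h medulla replicate 2 (-0.55) or replicate 3 (-0.46). In the cortex the 24 h call of Acsl3 was lost without sham cortex replicate 1 (-0.57) or replicate 3 (-0.55). It was also lost without 24 h cortex replicate 1 (-0.53) or replicate 2 (-0.55). Acsl4, which prefers arachidonic acid, and the dim Acsm3, above background on at most 2 arrays of any group, passed in no comparison. The thioesterases, which split the coenzyme A ester again, fell in the medulla. Acot1, the cytosolic form, differed there by -1.38, -1.43 and -0.92 at the 3 times and fell at each, although 10 of 18 alternatives ended the call at 120 h. Its sham medulla arrays lay between 12.51 and 12.68 and the 9 reperfused ones between 10.48 and 12.29. In the cortex its differences were -0.23, -0.04 and -0.09. Acot2, the mitochondrial form, fell in the medulla at 24 h (-0.83, adjusted p = 0.0283), a call lost under 8 of 18 alternatives. Acot1 and Acot2 are close paralogs, as are the Acsm genes, and signal shared between their probes cannot be told apart.

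None of the carnitine palmitoyltransferases passed. Neither Cpt1a, the outer-membrane transferase usually held to limit the rate of entry, nor its muscle-type form Cpt1b, nor the inner-membrane Cpt2 passed in any comparison with sham. Cpt1a lay between 10.77 and 12.22 over all 24 arrays, with differences from -0.59 to -0.22. Cpt2 differed by 0.39, 0.43 and 0.22 in the cortex and by 0.45, 0.38 and -0.15 in the medulla. Cpt1b ranged from 6.41 to 9.31 among the sham medulla arrays alone.

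Crat, carnitine acetyltransferase, was measured by 2 probes that disagreed. The brighter probe (ILMN_1355604) stood at 9.45, 9.27 and 9.28 in sham cortex and at 10.18, 10.12 and 10.14 at 6 h, groups that did not overlap. It rose by 0.81 ± 0.24 (adjusted p = 0.0210), and that call was lost without sham cortex replicate 2 or replicate 3 (0.78 each), or 6 h cortex replicate 1 (0.79) or replicate 2 (0.83). The dimmer probe (ILMN_1530370) stood at 4.75, 4.58 and 6.33 at 6 h against 5.88, 5.51 and 4.91 in sham, was above background on 1 of 3 arrays at 6 h, and differed by -0.21.

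Crot, the octanoyltransferase that exports chains shortened in peroxisomes, fell in 5 of the 6 comparisons. Its differences were -0.65 and -0.67 in the cortex at 6 and 24 h and -0.71, -0.61 and -0.74 in the medulla. At 120 h in the cortex it differed by -0.53 (adjusted p = 0.187). The arrays overlapped in the cortex at 6 h, where the adjusted p was 0.0487 and 8 of 18 alternatives ended the call, and in the medulla at 24 h 9 of 18 did. The call in the cortex at 24 h was lost without sham cortex replicate 1 (-0.43). Leaving out 24 h cortex replicate 1 (-0.57), replicate 2 (-0.74) or replicate 3 (-0.72) ended it too. In the medulla the call at 6 h was lost without sham medulla replicate 1 (-0.68) or 6 h medulla replicate 3 (-0.67), that at 24 h on leaving out any sham or 24 h array in turn (-0.70 to -0.53), and that at 120 h on leaving out any sham array (-0.78 to -0.72) or 120 h medulla replicate 2 (-0.60) or replicate 3 (-0.83).

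Among the mitochondrial acyl-CoA dehydrogenases, Acadsb (probe ILMN_1375035), which acts on short branched chains from isoleucine, fell everywhere. Its sham levels were 7.01, 6.45 and 6.24 in cortex and 6.64, 7.14 and 6.47 in medulla. In the cortex it stood at 5.65, 4.99 and 5.62 at 6 h, 5.13, 4.99 and 5.22 at 24 h and 4.87, 5.07 and 5.21 at 120 h. In the medulla it stood at 5.72, 5.16 and 5.43 at 6 h, 5.56, 5.16 and 5.05 at 24 h and 5.11, 5.25 and 5.50 at 120 h. No reperfused array of either region reached the lowest sham array, and the level at 120 h was as low as at 24 h. The differences were -1.14, -1.45 and -1.52 in the cortex and -1.31, -1.49 and -1.46 in the medulla, each with an SE of 0.23 and adjusted p between 0.000126 and 0.00184. The probe is dim, and on the authors' own series values its differences were smaller, between -0.52 and -0.67, with every call kept.

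Of the 4 straight-chain dehydrogenases, 3 fell in the medulla and 1 of these also in the cortex. Acadl, for long chains, fell by 0.86, 0.58 and 0.53 in the medulla at 6, 24 and 120 h, with sham arrays between 13.62 and 13.76 and reperfused arrays between 12.67 and 13.25. Acadm, for medium chains, fell by 0.84 and 0.74 in the medulla at 6 and 24 h and by 0.65 in the cortex at 24 h, where 8 of 17 alternatives ended the call. Acads, for short chains, fell by 0.74 and 0.69 in the medulla at 6 and 24 h. In the medulla the call of Acads at 24 h was lost without sham medulla replicate 1 (-0.55), that of Acadm at 24 h without sham medulla replicate 3 (-0.68) or 24 h medulla replicate 3 (-0.49), and that of Acadl at 120 h without 120 h medulla replicate 2 (-0.48). Acadvl, for very long chains, passed in no comparison, with differences between -0.42 and -0.08.

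The proteins that take electrons from these dehydrogenases did not move as a set. Etfdh (probe ILMN_1348782), which passes the electrons to ubiquinone, fell in 5 of the 6 comparisons. Its sham levels were 11.65, 10.92 and 11.09 in cortex and 10.89, 11.02 and 10.92 in medulla. In the cortex it stood at 10.49, 9.88 and 10.44 at 6 h, 10.22, 10.53 and 10.11 at 24 h and 10.55, 10.44 and 10.74 at 120 h. In the medulla it stood at 10.10, 10.05 and 9.46 at 6 h, 10.26, 9.89 and 9.93 at 24 h and 10.27, 9.87 and 10.14 at 120 h. Every reperfused array lay below every sham array of its region. The differences were -0.95, -0.93 and -0.65 in the cortex and -1.07, -0.92 and -0.85 in the medulla, with an SE of 0.21; at 120 h in the cortex the adjusted p was 0.0772, and the call at 120 h in the medulla was lost without 120 h medulla replicate 2 (-0.74). Etfa, the alpha subunit of the flavoprotein, fell in the medulla at all 3 times by 0.95, 0.97 and 0.67, with the last call ended by 8 of 18 alternatives. Etfb, the beta subunit, passed in none, with differences of 0.58, 0.83 and 0.40 in the cortex and 0.38, 0.80 and -0.04 in the medulla.

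Of the enzymes for the later steps of a round, Echs1, the short-chain hydratase, fell by 1.19 and 0.95 in the medulla at 6 and 24 h and by 0.67 in the cortex at 24 h, where 8 of 17 alternatives ended the call. Hadh, the next dehydrogenase for short and medium chains, fell by 1.39 and 0.93 in the medulla at 6 and 24 h, and 8 of 18 alternatives ended the later call or turned its sign. Of the subunits of the trifunctional protein for long chains, Hadhb fell by 0.60 in the medulla at 6 h. That call was ended by 4 of 18 alternatives, among them leaving out sham medulla replicate 2 (-0.53) or 6 h medulla replicate 3 (-0.55). Hadha passed in no comparison, with differences between -0.31 and 0.23. Its difference in the medulla at 6 h was -0.31, and the subunits were not tested against each other. The thiolases Acaa2 and Acat1 passed in no comparison, although Acaa2 was lower than sham on average in every one, by 0.41 to 0.98 on the log2 scale.

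The auxiliary enzymes that prepare unsaturated chains all fell in the medulla at 6 h, and none passed in the cortex at any time. Decr2 (probe ILMN_1352032), the peroxisomal dienoyl-CoA reductase, stood at 11.44, 10.56 and 10.48 on the sham medulla arrays and at 8.75, 9.49 and 8.29 at 6 h. It stood at 9.60, 8.89 and 8.32 at 24 h and at 9.95, 9.30 and 9.43 at 120 h. No reperfused array overlapped the sham arrays. The differences were -1.98 ± 0.38 (adjusted p = 0.000697), -1.89 ± 0.38 (adjusted p = 0.00106) and -1.26 ± 0.38 (adjusted p = 0.0316), the last not passing without sham medulla replicate 1 (-0.96) or 120 h medulla replicate 2 (-1.13) or replicate 3 (-1.20). In the cortex Decr2 stood between 11.29 and 11.87 in sham, and its arrays at 6 h, between 10.98 and 11.86, overlapped them. Decr1, the mitochondrial reductase, fell in the medulla at 6 h only among these comparisons, by 1.21. The isomerases Eci1 and Eci2 fell at all 3 times in the medulla, Eci1 by 0.77, 1.12 and 0.84 and Eci2 by 1.10, 1.06 and 0.93. The call of Eci1 at 6 h was lost without sham medulla replicate 1 (-0.60) or 6 h medulla replicate 3 (-0.64). At 120 h that of Eci1 was lost without sham medulla replicate 1 (-0.67) or 120 h medulla replicate 2 (-0.82) or replicate 3 (-0.79), and that of Eci2 without any 1 sham array (-0.97 to -0.90) or 120 h medulla replicate 2 (-0.74) or replicate 3 (-0.90).

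Peroxisomal oxidation held the largest falls of the cortex at 24 h, in Acox3 and Pex11a, and 1 of the 3 members that rose. Pex11a (probe ILMN_1374596), a membrane protein that drives peroxisome division, stood at 9.74, 9.36 and 8.84 in sham cortex, 8.25, 7.42 and 8.84 at 6 h, 7.94, 7.22 and 7.87 at 24 h and 8.49, 8.18 and 8.73 at 120 h. In the medulla it stood at 9.47, 9.24 and 9.13 in sham, 6.83, 7.01 and 6.03 at 6 h, 7.41, 5.86 and 6.25 at 24 h and 8.0, 6.64 and 7.10 at 120 h. Every reperfused medulla array was more than 1 log2 unit below every sham medulla array, while in the cortex the groups overlapped at 6 h. The medulla differences were -2.66, -2.77 and -2.03 with an SE of 0.41, that is 6.31-fold, 6.83-fold and 4.09-fold lower (adjusted p = 0.000149, 0.000105 and 0.00399). On the authors' series values the folds at 6 and 24 h were smaller by a factor of more than 1.5, with both calls kept. In the cortex Pex11a fell by 1.64 at 24 h (adjusted p = 0.00639) and differed by -1.14 and -0.84 at 6 and 120 h (adjusted p = 0.0581 and 0.261).

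Acox3 (probe ILMN_1350613), an oxidase for branched chains, fell in both regions at 6 and 24 h. It stood at 8.43, 8.15 and 8.07 in sham cortex, 6.38, 5.86 and 7.44 at 6 h, 6.55, 6.37 and 6.64 at 24 h and 7.48, 7.34 and 7.97 at 120 h. In the medulla the sham arrays stood at 8.71, 6.87 and 7.54, and the arrays at 5.95, 6.04 and 5.48 at 6 h, 6.42, 6.11 and 5.93 at 24 h and 7.18, 6.59 and 6.68 at 120 h. At 120 h the medulla arrays overlapped the sham arrays, which were themselves spread. The differences were -1.66 and -1.70 in the cortex (adjusted p = 0.00454 and 0.00244) and -1.89 and -1.56 in the medulla (adjusted p = 0.000925 and 0.00397). Without sham medulla replicate 1, the highest sham array, the medulla values were -1.39 and -1.05. On the authors' series values the difference in the cortex at 6 h was -1.06. The medulla folds at 6 and 24 h were smaller there by a factor of more than 1.5, and these 3 calls were kept.

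Acox2 (probe ILMN_1370783), the oxidase for bile acid intermediates, rose in the cortex at 24 h. It stood at 5.29, 5.46 and 5.07 in sham cortex, 6.01, 5.64 and 6.41 at 6 h, 7.14, 7.07 and 6.25 at 24 h and 5.63, 5.99 and 6.15 at 120 h. All 9 reperfused cortex arrays were above the sham arrays, with the highest values at 24 h. The rise at 24 h was 1.54 ± 0.36, 2.91-fold (adjusted p = 0.00352), and those of 0.75 and 0.65 at 6 and 120 h did not pass. The probe is dim, and the rise was 0.71 on the authors' series values, where the call was kept. In the medulla its differences were -0.26, 0.40 and -0.07.

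Acaa1a (probe ILMN_1359507), the peroxisomal thiolase, stood at 12.66, 12.81 and 12.86 in sham cortex, 12.31, 12.05 and 11.79 at 24 h and 12.40, 11.84 and 11.81 at 120 h, without overlap. It fell by 0.72 and 0.76 at 24 and 120 h (adjusted p = 0.0139 and 0.0368) and differed by -0.53 at 6 h (adjusted p = 0.0782). In the medulla it stood at 12.26, 11.85 and 11.99 in sham, and the 9 reperfused arrays lay between 10.59 and 11.36. It fell there by 0.95, 1.12 and 0.96. The call at 120 h in the cortex was lost on leaving out any sham cortex array in turn (-0.82 to -0.71) or 120 h cortex replicate 2 (-0.67) or replicate 3 (-0.65), and that at 24 h without 24 h cortex replicate 3 (-0.59). Hsd17b4, the peroxisomal enzyme for hydration and dehydrogenation, fell by 0.92 and 0.67 in the medulla at 6 and 24 h and passed nowhere in the cortex. Its call at 24 h was lost without sham medulla replicate 1 (-0.57) or 24 h medulla replicate 3 (-0.58).

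The 2 regulators passed in no comparison. Ppara, PPAR alpha itself, was near background, with array values from 4.63 to 6.03 and at most 2 of 3 arrays above background in sham. Ppargc1a, a coactivator of mitochondrial genes, differed by -0.75, -0.78 and -0.56 in the cortex and by 0.24, -0.09 and -0.15 in the medulla, with 1 sham cortex array at 8.82 against 7.02 and 7.72 on the others. The differences in the cortex had an SE of 0.42.

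**Figure D2:**
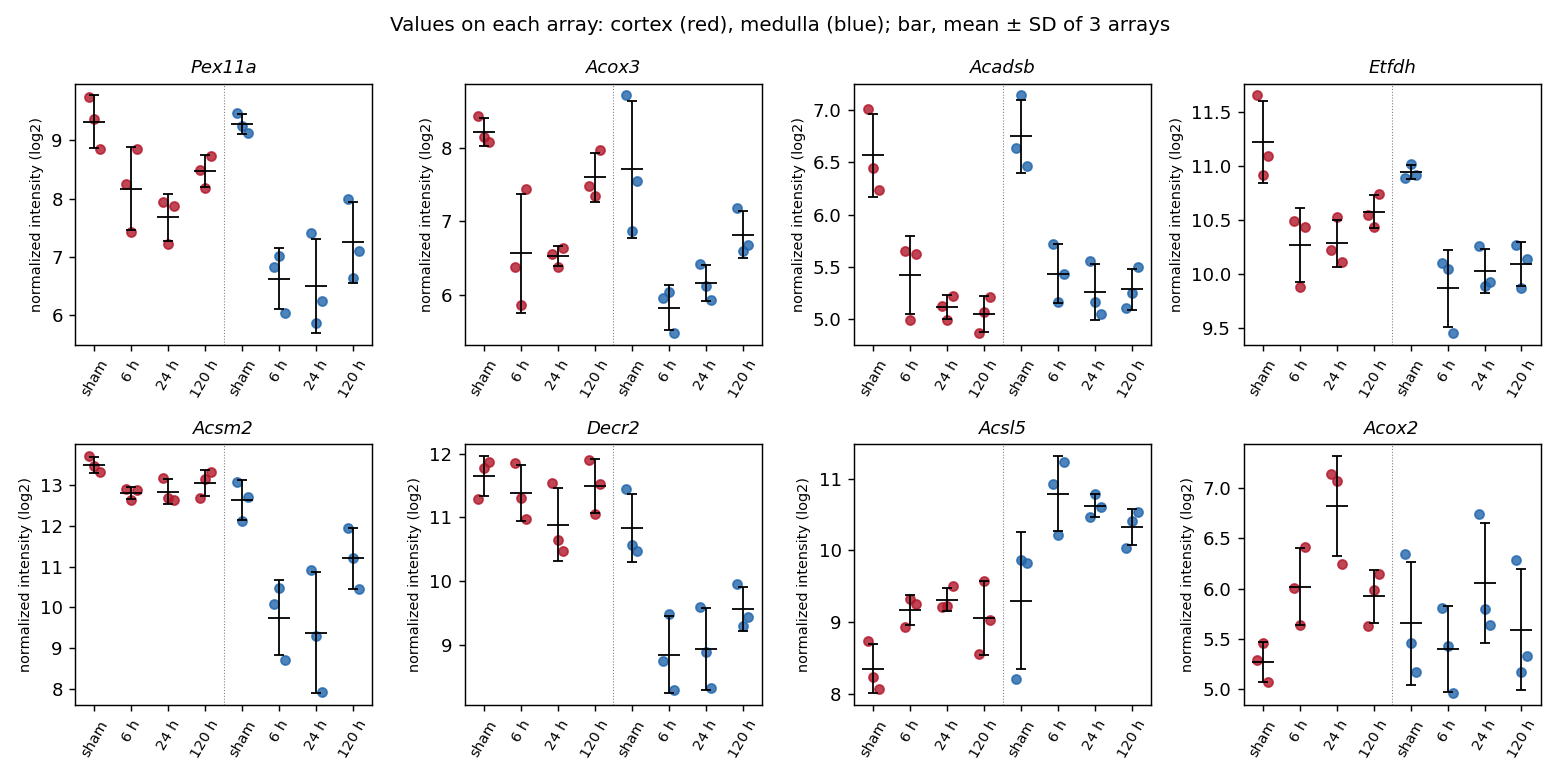
Normalized log2 intensity of 8 members on each of the 24 arrays, with 3 points per group and a bar at the mean ± SD (cortex left in red, medulla right in blue). Acadsb stayed low at 120 h, Acsm2 and Decr2 were lower in the medulla after reperfusion, Acsl5 was higher in the medulla at 6 and 24 h, and Acox2 was higher in the cortex at 24 h.

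By compartment, 8 peroxisomal and 24 mitochondrial probes were compared as descriptions. In the medulla 7, 7 and 5 of 8 peroxisomal probes had fallen at 6, 24 and 120 h, with median differences of -1.02, -1.09 and -0.91. Of the 24 mitochondrial probes 12, 11 and 5 had fallen, with medians of -0.73, -0.60 and -0.44. In the cortex 2, 4 and 1 peroxisomal and 2, 4 and 1 mitochondrial probes had fallen, with medians of -0.55, -0.70 and -0.40 against -0.28, -0.37 and -0.22. Of all probes 16.6%, 15.5% and 6.88% fell in the medulla and 10.8%, 13.6% and 3.20% in the cortex. The mitochondrial counts in the cortex were near these shares. The peroxisomal median was the lower in all 6 comparisons, and whether the compartments differ was not tested. The mean level of the peroxisomal probes was 10.05 to 10.62 on the sham medulla arrays, 8.55 to 9.17 at 6 h, 8.80 to 9.48 at 24 h and 9.01 to 9.70 at 120 h, with no overlap with sham at any time.

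In the medulla, markers of the proximal tubule moved with these falls. Of the 20 marker probes 17, 19 and 5 had fallen in the medulla at 6, 24 and 120 h, with median differences of -2.76, -3.15 and -1.23, and 3, 2 and 0 had fallen in the cortex. Slc34a1, the phosphate transporter of this segment, fell by 4.03 and 4.24 in the medulla at 6 and 24 h. Of all probes 16.6%, 15.5% and 6.88% fell in the medulla and 10.8%, 13.6% and 3.20% in the cortex at 6, 24 and 120 h. The marker counts in the cortex were near or below these shares. The mean marker level was 10.51 to 12.04 on the sham medulla arrays, 7.96 to 9.52 at 6 h, 7.52 to 9.37 at 24 h and 9.51 to 10.24 at 120 h. Summed on the linear scale the markers came to 106197 to 186175 in sham medulla, 27685 to 77273 at 6 h, 21814 to 68440 at 24 h and 74294 to 101941 at 120 h; in the cortex the sums were 177005 to 210844 in sham, 149692 to 182572 at 6 h, 101356 to 152667 at 24 h and 138531 to 176733 at 120 h. The highest mean among the sham medulla arrays was that of replicate 1, the array that correlated with sham cortex. In the reperfused medulla 16, 16 and 18 of the 20 probes were above background on all 3 arrays at 6, 24 and 120 h, against 19 in sham medulla. By contrast the 7 thick ascending limb probes held 0, 0 and 0 falls and 2, 1 and 0 rises in the medulla, with medians of -0.29, -0.13 and -0.07. Of all probes 17.3%, 17.2% and 7.69% rose there.

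With the mean proximal tubule marker level of each array as a covariate, a fit added after the data were seen, no member passed in the medulla at 6 or 24 h and 1, Acadsb, passed at 120 h. In that fit the share of all probes called in the medulla fell as well, to 0.0486%, 0.0278% and 1.29%. The mean marker level of the reperfused arrays lay below that of the sham arrays without overlap at each time in both regions, so marker level and reperfusion cannot be told apart. In the cortex 6, 5 and 2 members passed with the covariate at 6, 24 and 120 h, with 16.3%, 18.4% and 4.57% of all probes. Acadsb kept differences of -1.16, -1.48 and -1.53 there, and at 24 h Acox3 (-1.24), Etfdh (-0.79), Pex11a (-1.19) and Acox2 (1.97) also kept their calls. Macrophage marker probes had risen too, 4 of 6 at each time in the cortex and 5, 6 and 5 of 6 in the medulla. Of all probes 8.87%, 12.6% and 2.45% rose in the cortex and 17.3%, 17.2% and 7.69% in the medulla. The summed intensity of the macrophage probes was 1518 to 2100 in sham medulla and 4737 to 8137 over the reperfused medulla arrays. In the cortex it was 906 to 1692 in sham and 1636 to 5984 over the reperfused arrays. The part of macrophages in the falls was not tested.

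**Figure D3:**
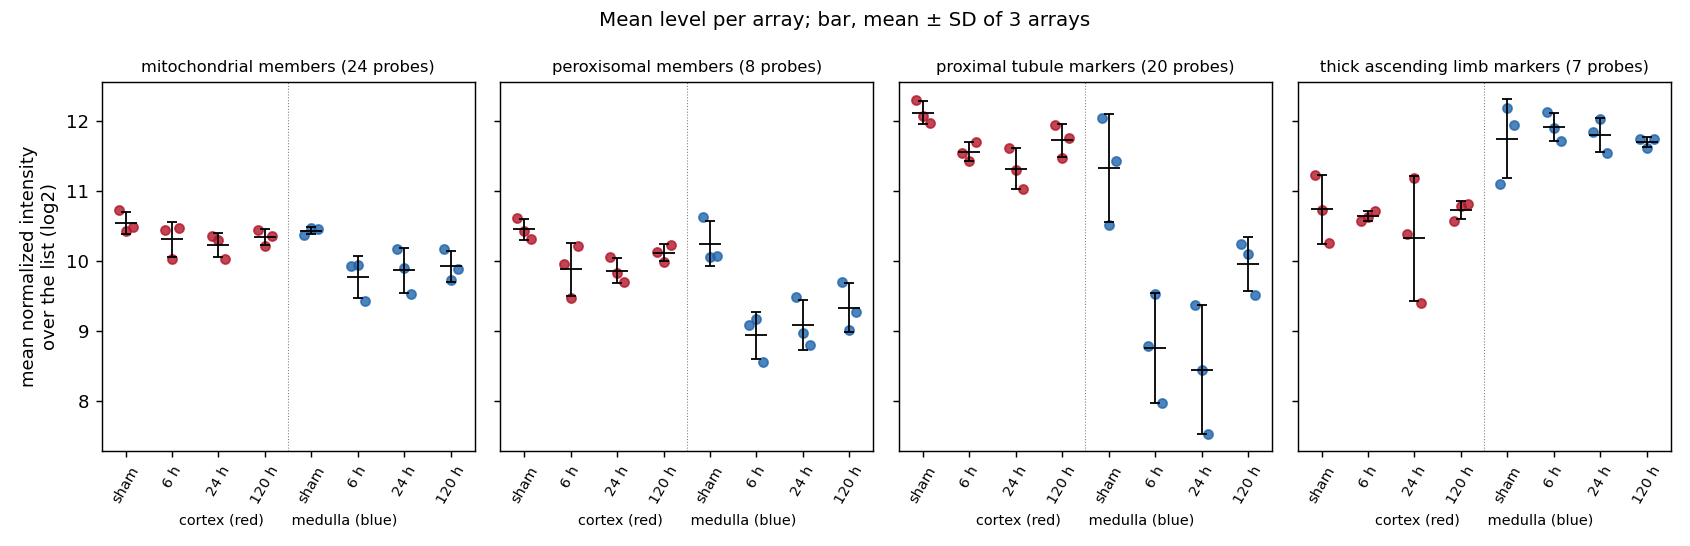
Mean log2 level per array of the mitochondrial and peroxisomal members and of the proximal tubule and thick ascending limb markers (3 points per group, bar at the mean ± SD, cortex in red, medulla in blue). Both member panels and the proximal tubule panel are lower in the reperfused medulla than in sham medulla.

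Between regions, no member passed in a test of the difference itself. The response of the medulla minus that of the cortex gave 0 of 41 calls at 6, 24 and 120 h by limma, where 0.202%, 0.0556% and 0.0139% of all probes passed, with 10, 9 and 2 members at an unadjusted p under 0.05. The lowest adjusted p at 6 h was that of Decr2, with a difference of -1.72 ± 0.54 (adjusted p = 0.194). At 24 h it was that of Acsm2, with -2.60 ± 0.76 (adjusted p = 0.187), which passed without 24 h medulla replicate 1. At 120 h it was that of Eci1, with -0.77 ± 0.30 (adjusted p = 0.801). With array weights 7 members passed at 24 h: Acadl, Acot1, Acot2, Acsm2, Eci1, Fabp1 and Fabp3. The share of all probes that passed in that fit rose as well, to 5.70%.

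**Figure D4:**
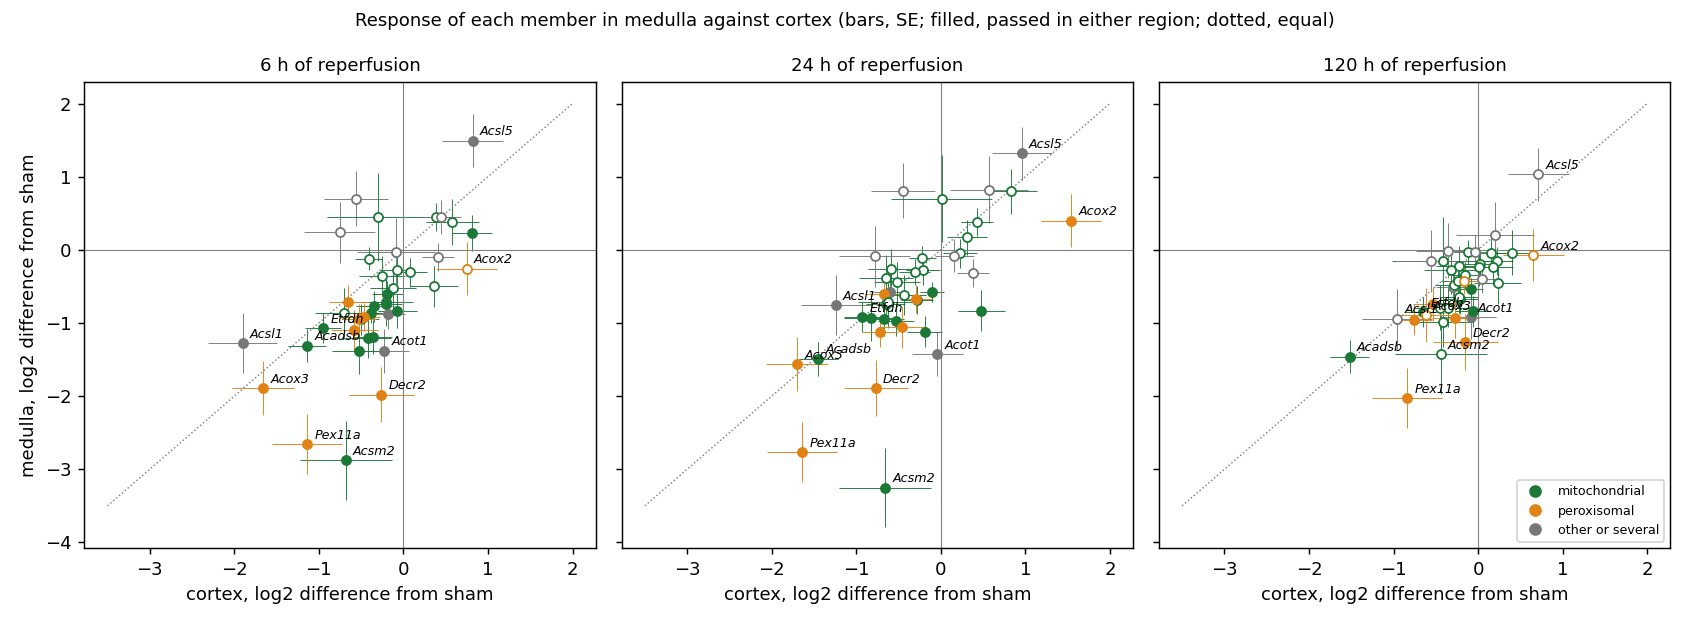
Log2 difference from sham in the medulla (vertical) against the cortex (horizontal) for each of the 41 probes at 6, 24 and 120 h, with bars of 1 SE and filled points for probes that passed in either region. Acsm2 and Decr2 lie well below the dotted line of equal differences at 6 and 24 h, Acadsb lies near it, and no difference between the regions passed.

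In sham kidneys, medulla and cortex did not differ beyond the threshold for any member by limma, with 7 of 41 at an unadjusted p under 0.05 and 1.39% of all probes called. The lowest adjusted p was that of Acaa1a, 0.74 lower in medulla (0.0773). Cpt1b was 1.75 ± 0.60 higher (adjusted p = 0.183), with sham medulla arrays at 6.41, 9.31 and 8.69 and sham cortex arrays at 7.28, 5.53 and 6.35. The 7 adipocyte marker probes had mean levels of 6.99, 7.59 and 9.53 on the sham medulla arrays and 5.90 to 6.17 in sham cortex, and their part in these values was not tested. Without sham medulla replicate 1, the array at 6.41, 3 members passed: Acsl5 and Cpt1b were higher and Acaa1a lower in medulla. The 1.39% of all probes belongs to the fit with all arrays, so these 3 are not set against a share of their own.

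No member passed from 6 to 24 h or from 24 to 120 h in either region by limma, where 1.50% and 2.34% of all probes passed in the cortex and 1.40% and 3.91% in the medulla. At an unadjusted p under 0.05 there were 4 and 2 members in the cortex and 2 and 5 in the medulla. The lowest adjusted p was that of Acsm2 in the medulla from 24 to 120 h, with a difference of 1.82 ± 0.54 (adjusted p = 0.0632), and it passed without 24 h medulla replicate 1. In the cortex over the same interval Acox3 differed by 1.08 ± 0.37 (adjusted p = 0.143).

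Other genes of the pathway, listed by role and not by how they moved, are given by their counts. These are to be read against the shares of all probes that fell, 10.8%, 13.6% and 3.20% in the cortex and 16.6%, 15.5% and 6.88% in the medulla at 6, 24 and 120 h. The shares that rose were 8.87%, 12.6% and 2.45% in the cortex and 17.3%, 17.2% and 7.69% in the medulla. Of 21 probes for further acyl-CoA oxidation enzymes 10, 7 and 3 fell in the medulla at 6, 24 and 120 h and 0, 6 and 0 in the cortex, against 1, 1 and 0 and 2, 2 and 0 that rose. Those that fell were 47.6%, 33.3% and 14.3% of the list in the medulla and 0%, 28.6% and 0% in the cortex. Cat, catalase, which destroys the hydrogen peroxide of peroxisomal oxidation, fell by 2.32 and 2.21 in the medulla at 6 and 24 h and by 1.71 in the cortex at 24 h. Amacr, the racemase for branched chains, fell by 2.30 in the medulla at both 6 and 24 h. Phyh, which begins the breakdown of phytanic acid, rose there by 0.69 and 0.80, and Abcd3, a peroxisomal transporter of acyl-CoA, rose in the cortex by 0.63 and 0.65.

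Entry of substrate held changes of both signs among 6 probes. Slc22a5, the plasma membrane carnitine transporter, fell by 1.67, 1.25 and 1.26 in the medulla and by 0.75 in the cortex at 6 h. Slc25a20, the carnitine carrier of the inner mitochondrial membrane, rose at 24 h by 0.77 in the cortex and by 0.58 in the medulla. Cd36, a fatty acid translocase, fell by 1.39 and 1.45 in the cortex at 6 and 24 h and by 1.61 in the medulla at 6 h.

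Partners and textbook targets of PPAR alpha fell more often than they rose, 12, 13 and 4 of 25 probes in the medulla at 6, 24 and 120 h and 6, 8 and 2 in the cortex, against 3, 1 and 1 and 1, 1 and 0 that rose. Rises over all probes were 17.3%, 17.2% and 7.69% in the medulla and 8.87%, 12.6% and 2.45% in the cortex. The more changeable of 2 probes for Cyp4a1, a fatty acid hydroxylase, fell in all 6 comparisons, with differences of -2.71, -3.99 and -2.33 in the cortex and -3.19, -3.41 and -2.0 in the medulla; the other probe differed by -0.53, -1.47 and -0.74 and by -0.75, -1.24 and -1.09. The more changeable probe stood at 5.01 and 4.78 in the medulla at 6 and 24 h, above background on 2 and 1 of 3 arrays. The Cyp4a genes are close paralogs, so a Cyp4a1 probe may also read its relatives. Rxra, the partner of PPAR alpha on DNA, fell by 1.41, 1.76 and 1.05 in the cortex and by 1.17 and 1.23 in the medulla at 6 and 24 h. Its levels at those times were near background, 5.49 and 5.13 in the cortex and 5.19 and 5.13 in the medulla. Plin2, which coats lipid droplets, rose at 6 h, by 1.47 in the cortex and 0.86 in the medulla.

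Of 12 peroxisome biogenesis probes 3, 4 and 1 fell in the cortex (25%, 33.3% and 8.33%) and 3, 5 and 2 in the medulla (25%, 41.7% and 16.7%). Among them Pex6 rose in the cortex at 6 and 24 h and in the medulla at 24 h. Pex10, a ligase of the import machinery, fell in all 6 comparisons, with differences of -1.95, -2.20 and -1.50 in the cortex and -1.86, -1.89 and -1.23 in the medulla. Its levels at 6 and 24 h were near background, 5.59 and 5.34 in the cortex and 5.36 and 5.33 in the medulla. In the cortex 2 of 3 arrays were above background at both times. Pex5, the receptor that imports peroxisomal enzymes, fell by 1.85 and 1.89 in the cortex at 6 and 24 h and by 2.13, 1.73 and 0.97 in the medulla. Its levels at 6 h, 5.58 in the cortex and 5.08 in the medulla, were near background, with 2 of 3 arrays above it. Pex2, Pex3, Pex14 and Pex19 passed in none of the 6, with differences between -0.32 and 0.20.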

How the data were processed

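Illumina bead arrays measured 24 rat kidney samples in 8 groups of 3. The deposited, non-normalized intensity of each probe and a detection fraction per array were used as given; detection p was taken as 1 minus the deposited fraction. The authors' series values, on a log2 scale, served as an alternative. The scanner software and its version are not given in the sources used here. Intensities were background-corrected with normexp from the detection p, quantile-normalized and put on the log2 scale (neqc, offset 16, limma 3.58.1 in R 4.3.3). Probes with detection p under 0.05 on 3 or more arrays were kept, 14390 of 22523. A model of 8 group means was fitted with lmFit and eBayes, and p-values were adjusted (Benjamini-Hochberg) over all probes in each comparison; the threshold was 0.05. Gene names come from the platform annotation, where 13793 probes had 1 symbol and 8730 none or several; sequences come from RefSeq (GRCr8). The fit was tested on simulated data. Members and lists were chosen with earlier results of these data known. Named in full are the 4 members of largest change in each direction per comparison with sham; other members are given by value and count, and other lists by up to 4 members. Alternatives covered background, scaling, filter, weights, prior, block, region and each array left out. The number of arrays limits precision.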

Additional observations from a re-analysis of the deposited data

How the results depend on the processing

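Of 74 calls of a member in a comparison with sham, 11 were kept under every alternative run, 34 were ended or turned in sign only by the proximal tubule marker covariate, and 29 were ended or turned by leaving out 1 array. Leaving out 1 array at a time gave 4 to 12 called members in the cortex at 6 h, 6 to 10 at 24 h and 1 to 2 at 120 h, 3 to 12 in the medulla at 120 h, 0 to 3 between sham regions, 0 to 1 for the 24 h difference in response and 0 to 1 from 24 to 120 h in the medulla. Array weights gave 11 called members in the cortex at 6 h and 17 at 24 h, 24 in the medulla at 120 h, 5 between sham regions, 7 for the 24 h difference in response, and 3 and 6 from 24 to 120 h in cortex and medulla. The share of all probes called rose in these fits too, to 24.4%, 37.3%, 25.1%, 14.8%, 5.70%, 13.9% and 19.2% in that order. Leaving out sham medulla replicate 1 and 6 h cortex replicate 3 together gave 12 in the cortex at 6 h, 6 in the medulla at 120 h and 4 between sham regions. The shares of all probes called in that fit are not given here, so these counts cannot be set against them. Median scaling gave 1 in the cortex at 120 h, and it moved the share of rises among all calls in the medulla at 120 h from 52.8% to 63.8%; from 6 to 24 h in the medulla that share moved from 78.6% to 92.0%. The cause of these changes was not tested. The covariate, added after the data were seen, gave 5 called members in the cortex at 24 h, and 0, 0 and 1 in the medulla at 6, 24 and 120 h. It turned the sign in the medulla at 6 h of Eci1 (0.14), Acadm (0.07), Decr1 (0.06), Hadh (0.23) and Acsm2 (0.11), and at 24 h of Acsl5 (-0.19), Acadm (0.28), Acox3 (0.09), Decr2 (0.05), Echs1 (0.00), Hadh (0.89), Hsd17b4 (0.05), Acsm2 (0.10) and Acot1 (0.00), none of which passed. Same-numbered arrays correlated in their deviations between -0.473 and 0.403, and replicate numbers were not taken to pair the samples. The 24 h cortex and 24 h medulla arrays were the 1 pair of groups of 14 where all 3 correlations were above 0.1 (0.398, 0.262 and 0.356); with the block, the 24 h difference in response still called 0 members (0.264% of all probes). With the replicate number as a block, 1 member passed between sham regions (Acaa1a) and 1 from 24 to 120 h in the medulla (Acsm2). The counts against sham with the block were 6, 14 and 2 in the cortex and 23, 23 and 14 in the medulla. For these block counts the shares of all probes are not given here. Dim probes such as Ppara, Acsm3 and the second Crat probe lie near background, where array signal limits what a difference can show.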

Other observations

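Fatty acid and triglyceride synthesis, the opposite direction of the pathway, changed in both directions. Of 10 probes 2, 3 and 1 fell in the cortex at 6, 24 and 120 h and 3, 2 and 3 in the medulla, while 1, 0 and 0 and 1, 1 and 1 rose. Of all probes 10.8%, 13.6% and 3.20% fell in the cortex and 16.6%, 15.5% and 6.88% in the medulla. In the same order 8.87%, 12.6% and 2.45% rose in the cortex and 17.3%, 17.2% and 7.69% in the medulla. Gpam, which starts triglyceride synthesis in the outer mitochondrial membrane, fell in all 6 comparisons, by 0.65, 1.04 and 0.89 in the cortex and by 1.26, 1.21 and 0.88 in the medulla. Its levels at 6 and 24 h were near background, 5.38 and 4.98 in the cortex and 4.88 and 4.93 in the medulla. In each of these groups 2 of 3 arrays were above background. Elovl5, an elongase of polyunsaturated chains, fell by 1.18 and 2.02 in the cortex at 6 and 24 h and by 1.46 in the medulla at 6 h. Scd2, a desaturase, rose in the medulla by 1.73 at 24 h and 1.41 at 120 h.

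The ketone body enzymes were measured by 2 probes. Bdh1, the mitochondrial hydroxybutyrate dehydrogenase, rose in the cortex at all 3 times, by 0.87, 0.97 and 0.87. Bdh2, a cytosolic relative, fell in the medulla by 1.56 and 2.25 at 6 and 24 h.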
